A study of Mus musculus with 20 samples.

Results

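Enzymes on the cell surface that break down extracellular nucleotides, and receptors for the adenosine they release, were examined in pancreatic islets of P2Y14-knockout and wild-type mice. The 10 genes were taken by symbol from a table of 26211 genes, and all 10 were found. They are the nucleoside triphosphate diphosphohydrolases Entpd1, Entpd2 and Entpd3, the nucleotide pyrophosphatase/phosphodiesterases Enpp1, Enpp2 and Enpp3, the 5'-nucleotidase Nt5e, and the adenosine receptors Adora1, Adora2a and Adora3.

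The study measured islet RNA by sequencing in 10 knockout and 10 wild-type libraries from mice labelled as C57BL/6 x 129S6. The labels state no treatment, age or sex, and the sources used here do not describe the deleted stretch of P2ry14. Islets had been freed by digesting the pancreas with an enzyme, picked by eye and cultured overnight. Nothing in the labels ties a library to a single animal, and p-values therefore measure only the spread between these samples, which may be technical. Knockout libraries are named here by the numbers 1 to 10 of the labels and wild-type libraries by the numbers 11 to 20 of their data columns.

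P2Y14 is a purinergic receptor on the cell surface that senses UDP and UDP-sugars, which cells release together with other nucleotides. At the cell surface the triphosphate diphosphohydrolases strip phosphates from nucleoside tri- and diphosphates, the pyrophosphatase/phosphodiesterases cleave nucleotides and related phosphodiesters, and Nt5e (CD73) turns AMP into adenosine. Adenosine then acts on receptors of which Adora1 and Adora3 lower and Adora2a raises cAMP, the messenger that promotes insulin and glucagon release.

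Reads summed over genes ranged from 34520628 to 199847246 per library, with a median of 92323083 for knockout and of 105776893 for wild-type libraries. In all 90 pairs taken within a group, libraries differed beyond counting noise. P2ry14 was at a normalized read count (reads of a gene divided by a size factor for its library) of 51.2 ± 31.4 (SD, n = 10) across knockout and 151 ± 67.4 (SD, n = 10) across wild-type libraries, with 8 of 10 knockout libraries under the whole wild-type range. Its log2 fold change was −1.97 with an adjusted p of 0.244 by limma, so the targeted gene itself did not pass the threshold used below. The listed beta cell markers took 13.5% to 44.1% of reads in knockout and 18.4% to 40.8% in wild-type, and those of the digestive acinar cells 6.78% to 26.6% and 5.12% to 25.9%. The islet hormone genes had log2 fold changes of 0.16 for Ins2, 0.10 for Ins1, −0.57 for Gcg, −0.54 for Sst and −0.51 for Ppy, with adjusted p by limma from 0.406 to 0.940. Wild-type library 19 had the lowest level of the duct, mesenchymal, macrophage, lymphocyte and Schwann cell lists. Knockout library 10 had the highest level of the acinar, endothelial and macrophage lists and the lowest of the alpha cell list. In such bulk samples, fewer cells of a type and less RNA per cell cannot be told apart.

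Setting knockout against wild-type islets asks whether the enzymes and receptors around a nucleotide receptor differed once that receptor was lost. None of the 10 genes passed an adjusted p of 0.05 by limma, a linear model on log2 of the normalized read count plus 1 with Benjamini-Hochberg adjustment over the 17482 genes tested. Over all genes 0.28% passed, 0.16% as higher and 0.12% as lower in knockout. At an unadjusted p under 0.05 there were 2 of the 10, Adora3 and Adora1, both with lower means in knockout, against 8.94% of all genes tested. In edgeR 0 of the 10 passed and 1 had an unadjusted p under 0.05, and in DESeq2 the counts were 0 and 3. Of all 17482 genes tested, 1542 in edgeR and 1713 in DESeq2 had an unadjusted p under 0.05, beside 1563 in limma. The median log2 fold change of the 10 genes was −0.01, with 5 positive and 5 negative, beside −0.0022 over all genes tested. In none of the 10 were the groups without overlap, as they were in 0.0343% of all genes.

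**Figure D1:**
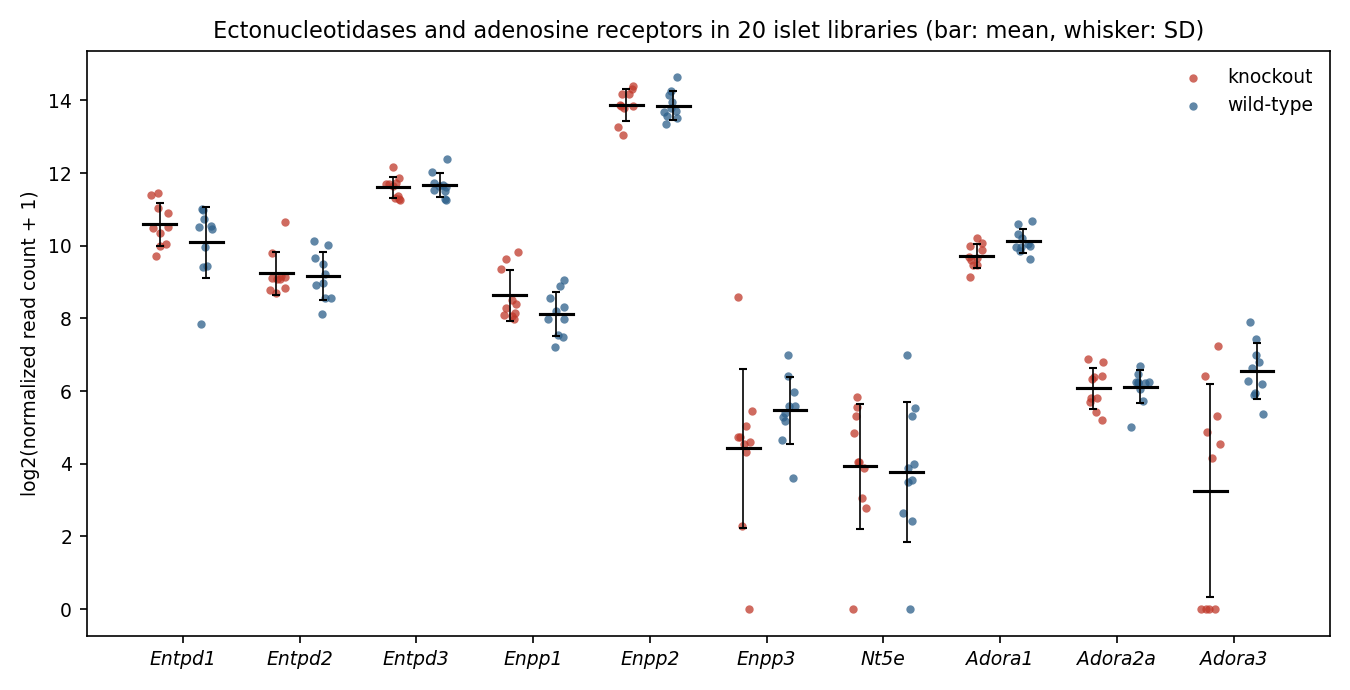
Level of each of the 10 genes in the 20 libraries, on the vertical axis as log2 of the normalized read count plus 1, with knockout and wild-type points side by side, a bar at the group mean and a whisker of 1 SD. Adora3 shows 4 knockout libraries at 0 and 8 of 10 below the lowest wild-type library, whereas the points of Entpd3 and Enpp2 lie in a narrow band.

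The genes spanned a wide range of levels, which were compared per kilobase of exon. Enpp2 was the highest at 2676 ± 738 (SD, n = 20) normalized reads per kilobase, and Entpd3 followed at 864 ± 200 (SD, n = 20). Enpp2 was above Entpd3 in 20 of 20 libraries, and Entpd3 above the next gene, Entpd2, in 19 of 20. Entpd2 (302 ± 149 per kilobase) and Entpd1 (263 ± 119 per kilobase) did not differ beyond their spread, since Entpd2 was the higher in only 12 of 20 libraries. Adora1 stood at 173 ± 46.7 per kilobase, below Entpd1 in 14 of 20 libraries and above Enpp1 (36.3 ± 19.8 per kilobase) in 20 of 20. Thus Adora1 was the leading adenosine receptor by level. Adora2a (23.3 ± 7.59 per kilobase) and Adora3 (18.7 ± 17.4 per kilobase) were close, with Adora2a the higher in 12 of 20 libraries. The lowest were Enpp3 at 9.08 ± 13.7 and Nt5e at 2.88 ± 3.38 normalized reads per kilobase. Their libraries held at most 205 and 107 reads, and those of Adora2a at most 187.

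Shares of the reads per kilobase were taken within each family over its 3 genes among the 10, and 1 gene held most. Entpd3 made up 58.9 ± 12.2% (SD, n = 10) of the summed level of the 3 diphosphohydrolases across knockout and 63.0 ± 14.1% (SD, n = 10) across wild-type libraries. Its share was lowest in knockout library 10, at 35.0%, and highest in wild-type library 19, at 89.2%. Entpd1 had a share of 20.4 ± 6.99% (SD, n = 10) across knockout and 16.1 ± 6.91% (SD, n = 10) across wild-type libraries, from 2.59% in wild-type library 19 to 31.2% in knockout library 6. Of the sum of Enpp1, Enpp2 and Enpp3, Enpp2 held 97.6 ± 2.69% (SD, n = 10) across knockout and 98.4 ± 0.905% (SD, n = 10) across wild-type libraries. Its lowest share was 90.6% in knockout library 10. The related genes Enpp5 and Enpp4, not counted in that sum, were at 871 ± 109 and 315 ± 56.1 normalized reads per kilobase (SD, n = 20). Among the 3 receptors Adora1 held 81.4 ± 9.20% (SD, n = 10) across knockout and 79.0 ± 7.02% (SD, n = 10) across wild-type libraries. The share of Adora3 was 5.46 ± 8.23% (SD, n = 10) across knockout and 11.4 ± 5.47% (SD, n = 10) across wild-type libraries. The group ranges of these shares overlapped for each gene.

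Entpd1 (ENSMUSG00000048120, chromosome 19) encodes CD39, the diphosphohydrolase of vascular and immune cells. Its normalized read count had a lowest, median and highest value of 845, 1454 and 2807 in knockout libraries and of 230, 1424 and 2052 in wild-type libraries. The medians were close, 3 knockout libraries (6, 8 and 10) lay above the highest wild-type library, and wild-type library 19 lay far below all others. The means were 1662 ± 688 (SD, n = 10) and 1272 ± 606 (SD, n = 10), a log2 fold change of 0.50 (SE 0.33, 95% interval −0.19 to 1.19, adjusted p = 0.681 by limma). That value was 0.25 without wild-type library 19, 0.16 without knockout library 10 and wild-type library 19, and 0.12 with the beta cell marker level as a covariate.

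Entpd2 (ENSMUSG00000015085, chromosome 2) encodes an enzyme that prefers triphosphates and so leaves diphosphates behind. It had 415, 548 and 1616 as lowest, median and highest normalized read count in knockout and 276, 547 and 1114 in wild-type. Apart from knockout library 10, which held the 1616, the knockout libraries lay within the wild-type range. The means of 658 ± 361 (SD, n = 10) and 627 ± 284 (SD, n = 10) gave a log2 fold change of 0.07 (SE 0.26, 95% interval −0.47 to 0.61, adjusted p = 0.956 by limma). In the annotation, Entpd2 shares 612 exon bases, 28.8% of its own, with Npdc1 on the same strand, and reads from that stretch cannot be assigned to 1 of the genes. Npdc1, a neural differentiation gene, was at 17839 ± 2767 (SD, n = 10) and 18363 ± 2474 (SD, n = 10).

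Entpd3 (ENSMUSG00000041608, chromosome 9) encodes the diphosphohydrolase found on the surface of islet endocrine cells. It was the steadiest of the 10 genes between libraries, with 2436, 3252 and 4616 normalized reads as lowest, median and highest in knockout and 2439, 3172 and 5322 in wild-type. The 2 ranges were nearly the same, and the highest value was that of wild-type library 19. The log2 fold change was −0.06 (SE 0.14, 95% interval −0.35 to 0.22, adjusted p = 0.921 by limma), an interval of 0.787-fold to 1.17-fold. Its spread within groups ranked at the 27.3 percentile of all genes tested, against 77.7 for Entpd1 and 69.0 for Entpd2.

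The 3 diphosphohydrolases varied across libraries in opposed ways. Over the 20 libraries Entpd1 and Entpd2 moved together (Pearson r = 0.67, permutation test p = 0.00148, adjusted p = 0.0148 over 45 pairs; Spearman rho = 0.69), with r = 0.60 within knockout and 0.75 within wild-type. Entpd3 ran against both, with r = −0.67 to Entpd1 (permutation test p = 0.00165, adjusted p = 0.0148) and r = −0.66 to Entpd2. Entpd1 also moved with Enpp1 (r = 0.65) and Nt5e (r = 0.67), and Entpd3 against Nt5e (r = −0.60, adjusted permutation p = 0.0433). These 6 of 45 pairs passed the adjusted p. Without the 2 libraries farthest from the median of the second gene of each pair, none of the 45 passed. For Entpd1 with Entpd2 r was then 0.69, without knockout library 10 and wild-type library 17. It was −0.44 for Entpd1 with Entpd3 and −0.14 for Entpd3 with Nt5e, both without knockout library 7 and wild-type library 19. The relation between the last pair thus rests on the libraries left out. Wild-type library 19, the lowest for Entpd1 and Entpd2, stayed in the first value, so the 3 values are not like for like.

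The sequences upstream of 4 of these genes are shown because their levels moved together or in opposition. Each is the stretch of 250 bases before a start site listed in RefSeq (GRCm38.p6, forward strand), which holds an entry for 8 of the 10 genes. Capitals mark matches, on either strand, to CCAAT (the CCAAT box), to the GC box motif GGGCGG or to the E-box motif CACGTG. A search for the TATA box motif TATAAA found no match in them. The stretches lie at chr19:40612116-40612365 for Entpd1 (the first of 2 listed start sites), chr2:25395624-25395873 for Entpd2, chr9:120539568-120539817 for Entpd3 and chr9:88327359-88327608 for Nt5e.
Entpd1: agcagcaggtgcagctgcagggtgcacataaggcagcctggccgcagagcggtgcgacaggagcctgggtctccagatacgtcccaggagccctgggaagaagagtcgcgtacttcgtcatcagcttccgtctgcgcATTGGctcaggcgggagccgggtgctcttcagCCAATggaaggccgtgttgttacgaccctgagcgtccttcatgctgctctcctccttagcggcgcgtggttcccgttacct
Entpd2: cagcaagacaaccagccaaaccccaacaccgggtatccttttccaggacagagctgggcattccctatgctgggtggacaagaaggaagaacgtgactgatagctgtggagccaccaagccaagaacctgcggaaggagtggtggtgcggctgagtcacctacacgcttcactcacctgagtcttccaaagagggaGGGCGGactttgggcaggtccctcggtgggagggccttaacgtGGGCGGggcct
Entpd3: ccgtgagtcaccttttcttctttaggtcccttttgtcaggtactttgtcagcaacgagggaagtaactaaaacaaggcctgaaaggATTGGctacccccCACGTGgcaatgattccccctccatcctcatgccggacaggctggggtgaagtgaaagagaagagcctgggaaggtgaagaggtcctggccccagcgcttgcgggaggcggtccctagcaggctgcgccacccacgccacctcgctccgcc
Nt5e: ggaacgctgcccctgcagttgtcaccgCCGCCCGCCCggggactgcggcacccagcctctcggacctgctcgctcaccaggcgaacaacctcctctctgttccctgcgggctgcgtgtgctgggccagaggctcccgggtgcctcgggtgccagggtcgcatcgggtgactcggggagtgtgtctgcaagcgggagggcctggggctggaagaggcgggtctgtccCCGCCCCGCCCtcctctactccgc
Entpd1 had 2 matches to CCAAT, found in 33.8% of the 32817 promoters of this length. Entpd2 had 2 matches to GGGCGG and Nt5e 4, in overlapping pairs, and 32.7% of promoters hold that motif. Entpd3 had 1 CCAAT and was the only one of these 4 with the E-box motif, which 6.02% of promoters hold. The 4 stretches hold 18, 9, 11 and 21 CG dinucleotides in the order printed, against a median of 6 over all promoters. The second listed start site of Entpd1, not printed, had 8, with 1 match to CCAAT. Enpp1, which was also in a pair that passed, is not printed and had 17, with 1 match to GGGCGG. Which start site islets use was not measured, and a match is a description of letters, not of binding.

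Marker levels of cell types differed between islet preparations, and levels of several of the 10 genes followed them. Of 100 pairs of a gene and a marker list (10 lists, mean log2 level of each list), 24 passed an adjusted permutation p of 0.05 over the 20 libraries, and these involved Entpd1, Entpd2, Entpd3, Enpp1, Nt5e and Adora3. Without the 2 libraries farthest from the median of the marker level 17 of the 100 passed. These included 3 that had not passed over all 20 libraries, namely Enpp1 and Enpp2 with the acinar list (r = 0.64 and −0.64, adjusted permutation p = 0.035 for both) and Adora1 with the delta and PP list. Within genotypes, with 10 libraries each, 0 passed in knockout and 8 in wild-type. All libraries were normalized together, so the pairs are not independent of each other.

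**Figure D2:**
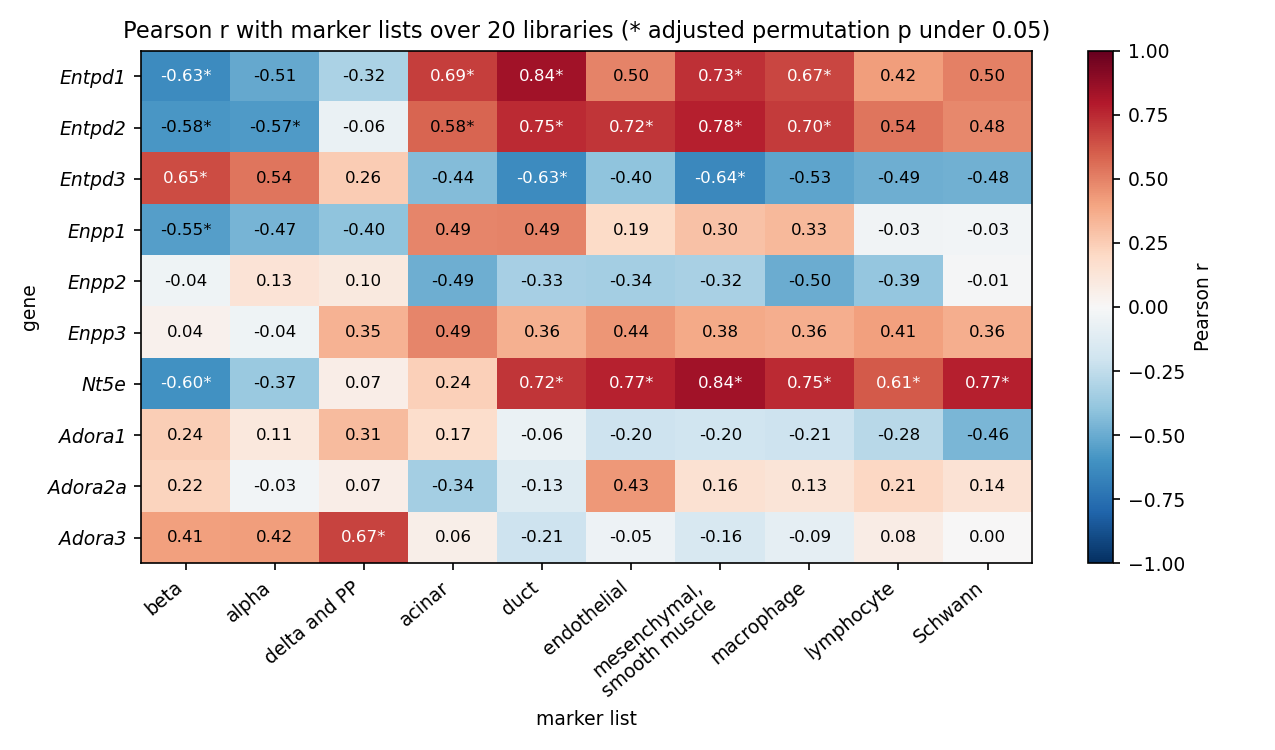
Pearson r over 20 libraries between each of the 10 genes (vertical axis) and each of 10 marker lists (horizontal axis), in colour, with a star where the adjusted permutation p was under 0.05. The 24 stars fall on Entpd1, Entpd2, Entpd3, Enpp1, Nt5e and Adora3, with values from −0.64 for Entpd3 with the mesenchymal list to 0.84 for Nt5e with that list.

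Entpd1 was high where duct, acinar, mesenchymal and macrophage transcripts were high. Its r to the duct list was 0.84 (permutation test p = 4e-05, adjusted p = 0.002; rho = 0.73), at 0.73 within knockout, 0.88 within wild-type and 0.63 without wild-type libraries 12 and 19. To the acinar list r was 0.69 (adjusted permutation p = 0.00582; rho = 0.72), and to the beta cell list −0.63 (adjusted permutation p = 0.0158; rho = −0.64). Without the 2 libraries farthest on each list both kept a similar size. The acinar value was 0.69 without knockout library 5 and wild-type library 12. The beta cell value was −0.67 without knockout library 2 and wild-type library 16. Wild-type library 19, the lowest for Entpd1, stayed in both, so these values do not show how far the relations rest on it. Its r to the mesenchymal and smooth muscle list was 0.73 (adjusted permutation p = 0.00582; rho = 0.67). That r became 0.49 (adjusted permutation p = 0.134) without the 2 farthest libraries. Its r to the macrophage list was 0.67, which became 0.44 (adjusted permutation p = 0.216) without the 2 farthest libraries and so rests on them.

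Entpd2 followed the mesenchymal and smooth muscle list, with r = 0.78 (permutation test p = 7e-05, adjusted p = 0.00233; rho = 0.81), at 0.67 within knockout and 0.86 within wild-type. To the duct list its r was 0.75 (adjusted permutation p = 0.00271). Entpd2 also passed with the endothelial (r = 0.72), macrophage (0.70), acinar (0.58), beta cell (−0.58) and alpha cell (−0.57) lists. Without the 2 farthest libraries its pairs with the endothelial, macrophage and alpha cell lists no longer passed. Entpd3 was the only one of the 10 with a positive correlation past the threshold to the beta cell list, at r = 0.65 (permutation test p = 0.00166, adjusted p = 0.0111; rho = 0.62). That r was 0.80 within knockout and 0.60 within wild-type. It was 0.56 without knockout library 2 and wild-type library 16, no longer past the threshold (adjusted permutation p = 0.0702).

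Nt5e followed the mesenchymal list, with rho = 0.86 and r = 0.84 (permutation test p = 1e-05, the smallest that these permutations can give, adjusted p = 0.001). Within knockout r was 0.81 and within wild-type 0.87, and it was 0.84 without the 2 farthest libraries. Its r to the Schwann and endothelial lists was 0.77 each (adjusted permutation p = 0.0024 for both), to the duct list 0.72 and to the beta cell list −0.60. By rank the endothelial list was at rho = 0.87, slightly above the mesenchymal list, and within wild-type its r was 0.89. Over the 20 libraries Enpp2, Enpp3, Adora1 and Adora2a had no pair past the adjusted p.

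**Figure D3:**
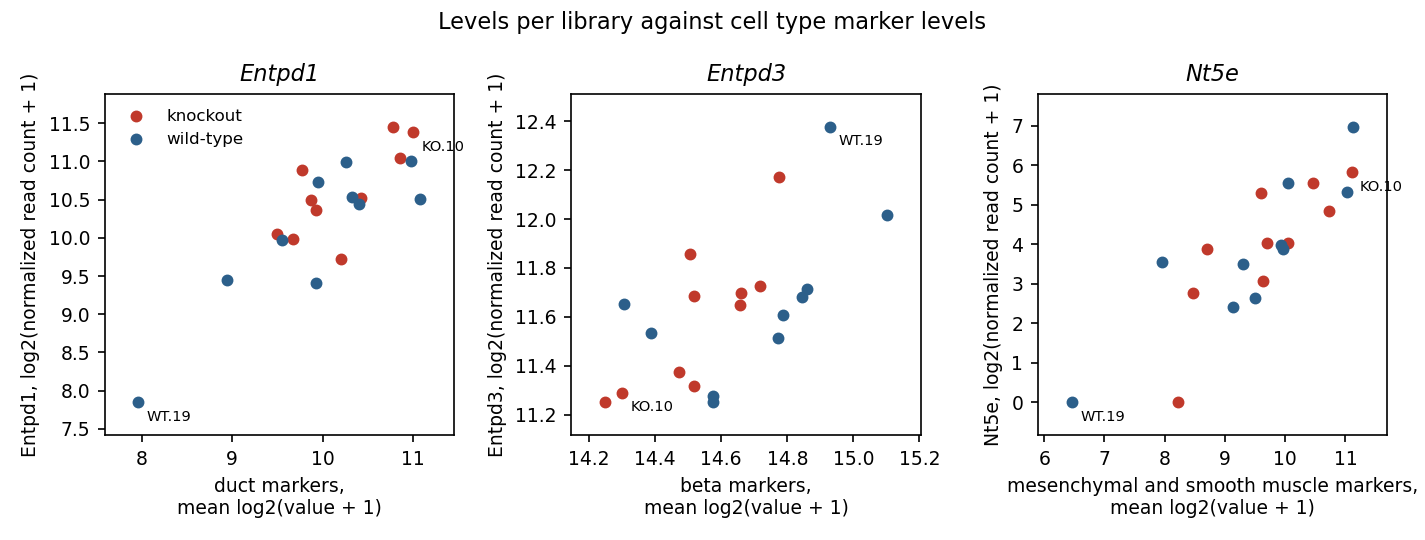
Level of Entpd1 against the duct list, Entpd3 against the beta cell list and Nt5e against the mesenchymal list, each point being 1 library, both axes as log2 of the normalized read count plus 1 (a mean over markers on the horizontal axis). Wild-type library 19 sits at the lower left for Entpd1 and Nt5e and at the top for Entpd3, and knockout library 10 sits towards the other end of each plot.

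The phosphodiesterases are described next. Enpp1 (ENSMUSG00000037370, chromosome 10) encodes an enzyme that cleaves ATP to AMP and pyrophosphate and that is a known inhibitor of insulin receptor signalling. Its normalized read count had a lowest, median and highest value of 253, 324 and 901 in knockout and of 148, 273 and 533 in wild-type. Knockout libraries 2, 6 and 10 were above the highest wild-type library, with 662, 787 and 901, and the other 7 lay within the wild-type range. The means of 443 ± 243 (SD, n = 10) and 301 ± 128 (SD, n = 10) gave a log2 fold change of 0.50 (SE 0.27, 95% interval −0.07 to 1.07, adjusted p = 0.612 by limma). It was 0.30 without knockout library 10 and wild-type library 19 and 0.19 with the delta and PP cell marker level as a covariate.

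Enpp2 (ENSMUSG00000022425, chromosome 15) encodes autotaxin, a secreted enzyme best known for making lysophosphatidic acid. It was the most abundant of the 10, with 8438, 14907 and 21369 normalized reads as lowest, median and highest in knockout and 10478, 13771 and 25409 in wild-type. Knockout libraries 6 and 10 lay under the wild-type range and wild-type library 20 above the highest knockout library, and the rest overlapped. The means were 15573 ± 4221 (SD, n = 10) and 15358 ± 4533 (SD, n = 10), and the log2 fold change was 0.02 (SE 0.18, 95% interval −0.35 to 0.38, adjusted p = 0.989 by limma).

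Enpp3 (ENSMUSG00000019989, chromosome 10) encodes a phosphodiesterase of basophils and of the intestinal epithelium. Its normalized read count had a lowest, median and highest value of 0, 24.4 and 383 in knockout and of 11.2, 44.1 and 126 in wild-type. The single high knockout value was that of library 10, the next being 42.9, and 9 of 10 knockout libraries lay below the wild-type median. Knockout library 5 had 0 reads, which allows up to 4.62 for counting error only. The knockout mean of 57.8 ± 115 (SD, n = 10) was above the wild-type mean of 51.5 ± 32.8 (SD, n = 10), whereas the log2 fold change was −1.04 (SE 0.70, 95% interval −2.49 to 0.42, adjusted p = 0.687 by limma). The sign differed between methods, since edgeR on the reads gave 0.12. Without knockout library 10 limma gave −1.50, and edgeR was not run without it.

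Some genes of the intestinal epithelium were high in the same library. The list of 13 such genes was chosen after the values of Enpp3 were seen and is described without a test. Of these, 3 (Vil1, Mttp and Anpep) had reads in every library, and the other 10 were at 0 in 8 to 18 of the 20 libraries. Summed over those 10, the normalized read count was 4079 in knockout library 10, 2266 in wild-type library 17 and from 0 to 100.3, with a median of 12.7, in the other 18. Over all 13 the sum was 16176 in knockout library 10, within the range of 9889 to 17358 of the other knockout libraries, and from 8651 to 17433 in wild-type. Knockout library 10 and wild-type library 17 were also the libraries with the highest Enpp3 of their groups. Of the 13 genes 5 were highest in knockout library 10 and 5 in wild-type library 17. Apoa4, an intestinal apolipoprotein gene, was at 1653 in knockout library 10, against at most 234 elsewhere. Vil1, which encodes the microvillus protein villin, had in knockout library 10 its lowest value of the 20 libraries, 1565, and the intestinal homeobox gene Cdx2 was at 0 there. The part of these transcripts in the values of Enpp3 was not tested.

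Other genes of nucleotide breakdown that the small intestine makes showed the same library, singled out after their values were seen. Alpi, the intestinal alkaline phosphatase, was at 1219 in knockout library 10, 567 in wild-type library 17 and 8.13 in knockout library 4, and at 0 in the other libraries. Entpd8, a diphosphohydrolase of liver and gut, was at 130.9 in knockout library 10 and at 0 in all others. Ada, adenosine deaminase, was at 1294 in knockout library 10.

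Nt5e (ENSMUSG00000032420, chromosome 9) encodes CD73, the enzyme that makes adenosine from AMP. It was near the limit of detection, with a median of 14.5 reads per library. Its normalized read count had a lowest, median and highest value of 0, 15.4 and 56.1 in knockout and of 0, 12.3 and 126 in wild-type. Knockout library 7 and wild-type library 19 had 0 reads, which allows up to 6.11 and 2.80, and wild-type library 20 alone was above all knockout libraries. The means of 22.6 ± 18.7 (SD, n = 10) and 26.9 ± 37.7 (SD, n = 10) had a ratio of 0.840, whereas the log2 fold change was 0.15 (SE 0.77, 95% interval −1.44 to 1.74, adjusted p = 0.969 by limma). The interval spans 0.367-fold to 3.35-fold, and its width comes from the spread between libraries.

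Among the adenosine receptors, Adora1 and Adora3 had lower means in knockout and Adora2a did not. Adora1 (ENSMUSG00000042429, chromosome 1) encodes the A1 receptor, which couples to inhibitory G proteins. Its normalized read count had a lowest, median and highest value of 560, 816 and 1174 in knockout and of 799, 1035 and 1628 in wild-type. The 4 lowest knockout libraries (3, 4, 7 and 9) lay below the wild-type range and 4 wild-type libraries (11, 12, 17 and 19) above the knockout range. The means were 859 ± 190 (SD, n = 10) and 1142 ± 271 (SD, n = 10), a log2 fold change of −0.41 (SE 0.14, 95% interval −0.71 to −0.11), with 9 of 10 knockout libraries below the wild-type mean of the log values. Its unadjusted p was 0.00937 and its adjusted p 0.379 by limma, so it did not pass over all genes. Over 36 alternatives the value ran from −0.66 to −0.34 and the adjusted p from 0.237 to 0.594.

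The noncoding part of Adora1 shares 1162 exon bases, 20.1% of its exons, with Mybph on the opposite strand, and the kit does not mark strand. Mybph, a gene of muscle myosin filaments, was far lower, at 80.6 ± 34.8 (SD, n = 10) across knockout and 93.2 ± 25.5 (SD, n = 10) across wild-type libraries, and its log2 fold change was −0.28 (limma adjusted p = 0.760). No marker list passed the threshold with Adora1 over all 20 libraries, the value for the delta and PP list being r = 0.31 (adjusted permutation p = 0.282; rho = 0.32). Without knockout library 2 and wild-type library 20 that r was 0.60 and passed (adjusted permutation p = 0.0441), whereas within knockout it was −0.68 and within wild-type −0.03, neither past the threshold. The relation thus depends on which libraries enter it, and its r was negative within knockout and near 0 within wild-type.

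Adora2a (ENSMUSG00000020178, chromosome 10) encodes the receptor that raises cAMP through stimulatory G proteins. It had 35.9, 67.4 and 117 normalized reads as lowest, median and highest in knockout and 31.5, 74.6 and 102 in wild-type. The ranges overlapped nearly in full, with knockout libraries 9 and 10 above the highest wild-type library. The log2 fold change was −0.04 (SE 0.24, 95% interval −0.53 to 0.45, adjusted p = 0.976 by limma), and the means were 71.3 ± 27.9 (SD, n = 10) and 71.2 ± 19.0 (SD, n = 10).

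Adora3 (ENSMUSG00000000562, chromosome 3) encodes the A3 receptor, which also couples to inhibitory G proteins. The knockout libraries 1 to 10 had normalized read counts of 0, 0, 83.7, 149, 0, 28.3, 22.4, 0, 38.6 and 16.8, and the wild-type libraries ran from 40.3 through a median of 87.3 to 240. Of the 10 knockout libraries 8 lay under the whole wild-type range, and libraries 3 and 4 lay inside it. The 4 libraries at 0 (1, 2, 5 and 8) allow up to 1.70, 2.91, 4.62 and 2.98 for counting error only. The means were 33.9 ± 48.1 (SD, n = 10) and 105 ± 60.8 (SD, n = 10), with a ratio of 0.322. The log2 fold change was −3.29 (SE 0.89, 95% interval −5.13 to −1.45), which depends on the pseudocount because of the zeros and was −1.91 with a pseudocount of 10. Its unadjusted p was 0.00123 and its adjusted p 0.157 by limma, so Adora3 did not pass over all genes, where it ranked 137 by p. The adjusted p ran from 0.0834, without knockout library 4, to 0.765 over 35 alternatives, and the value was −1.60 in edgeR (adjusted p = 0.582) and −1.63 in DESeq2 (adjusted p = 0.483).

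**Figure D4:**
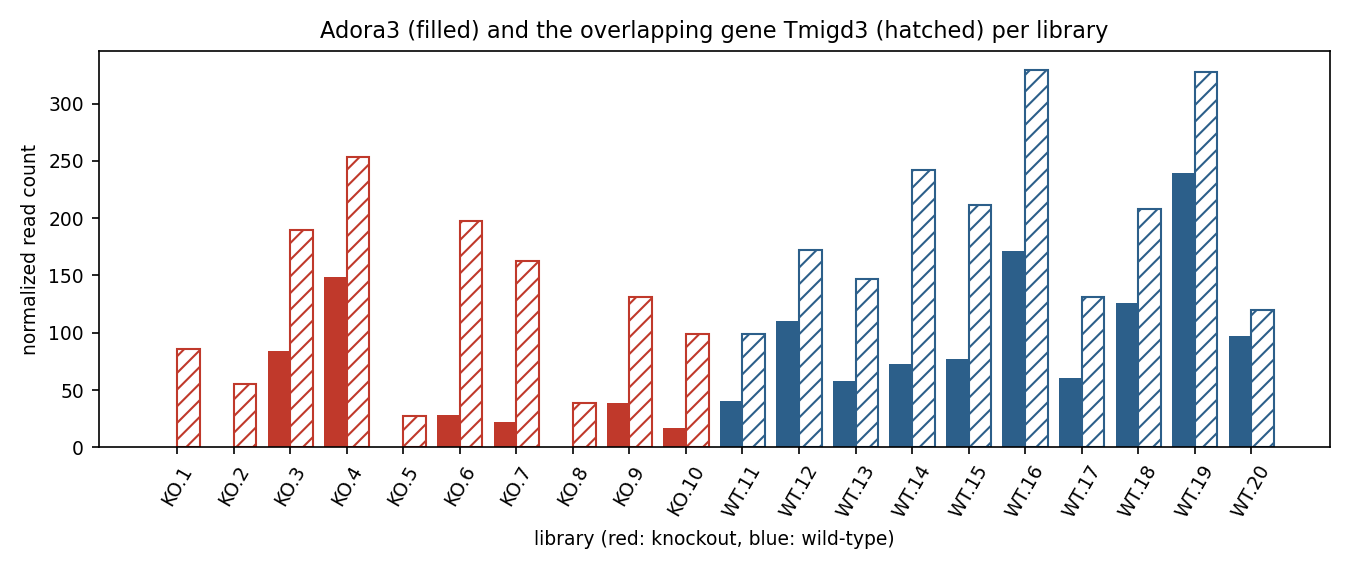
Normalized read count (vertical axis, linear) of Adora3 in filled bars and of the overlapping gene Tmigd3 in hatched bars, for each of the 20 libraries (horizontal axis, knockout in red and wild-type in blue). Knockout libraries 1, 2, 5 and 8 have no Adora3 bar, and their Tmigd3 bars are the 4 lowest of the knockout group.

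Adora3 shares exons with Tmigd3, a neighbour on the same strand that encodes an immunoglobulin domain protein. The overlap holds 779 bases, 20.9% of the exon bases of Adora3, of which 353 are coding in Adora3. Reads from that stretch cannot be told apart between the genes, and Tmigd3 was chosen by its place in the annotation. Tmigd3 had 27.7, 115 and 254 normalized reads as lowest, median and highest in knockout and 99.2, 190 and 330 in wild-type. It was lower on average in knockout, with means of 124 ± 75.7 (SD, n = 10) and 199 ± 81.6 (SD, n = 10) and an estimated log2 difference of −0.87 (SE 0.36; limma adjusted p = 0.479). The knockout libraries 1, 2, 5 and 8, which had no Adora3 read, had Tmigd3 at 85.4, 55.3, 27.7 and 38.8, the 4 lowest values of the knockout group. Thus reads of Tmigd3 were counted in libraries where none was counted for Adora3.

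The delta and PP cell markers moved with both Adora3 and genotype. Their mean log2 level ran from 8.71 to 9.61 in knockout and from 9.57 to 10.7 in wild-type. All 7 of the markers tested had negative fold changes, 1 of them past the adjusted p, and none of the 8 listed was at 0 in every library. Adora3 followed this list with r = 0.67 over the 20 libraries (permutation test p = 0.00105, adjusted p = 0.0075; rho = 0.65), but r was 0.60 within knockout and 0.14 within wild-type, and neither passed. With this list as a covariate the log2 fold change of Adora3 was −1.25 (limma adjusted p = 0.765), whereas that of Adora1 was −0.66 (adjusted p = 0.325). The levels of this list barely overlap between knockout and wild-type, so the fit with it as a covariate cannot divide the list from genotype. The part of these markers in the lower Adora3 mean was not tested.

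Adora3 lies on the same chromosome as P2ry14. In the order of the 833 tested genes of chromosome 3, P2ry14 was number 174, Adora3 number 555 and Tmigd3 number 556. Capza1, a gene of the actin capping protein that passed the test over all genes, was number 547. The genes of this chromosome that passed ran from number 328 (Thbs3) to 753 (Unc5c) of the 833. Adora3 lies within that wide span, as do many genes that did not pass, and P2ry14 lies outside it. The sequence before the Adora3 start site is shown because Adora3 had the smallest p of the 10 genes. It spans chr3:105904171-105904420 on the forward strand of GRCm38.p6 and had no match to the 4 motifs and 0 CG dinucleotides, against the median of 6.
Adora3: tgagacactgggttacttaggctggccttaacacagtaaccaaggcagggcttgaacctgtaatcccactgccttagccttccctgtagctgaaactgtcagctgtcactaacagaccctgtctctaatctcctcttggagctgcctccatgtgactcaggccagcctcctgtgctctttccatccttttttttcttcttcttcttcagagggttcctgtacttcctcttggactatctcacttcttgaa
No match says only that these letters are not in this stretch.

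**Figure D5:**
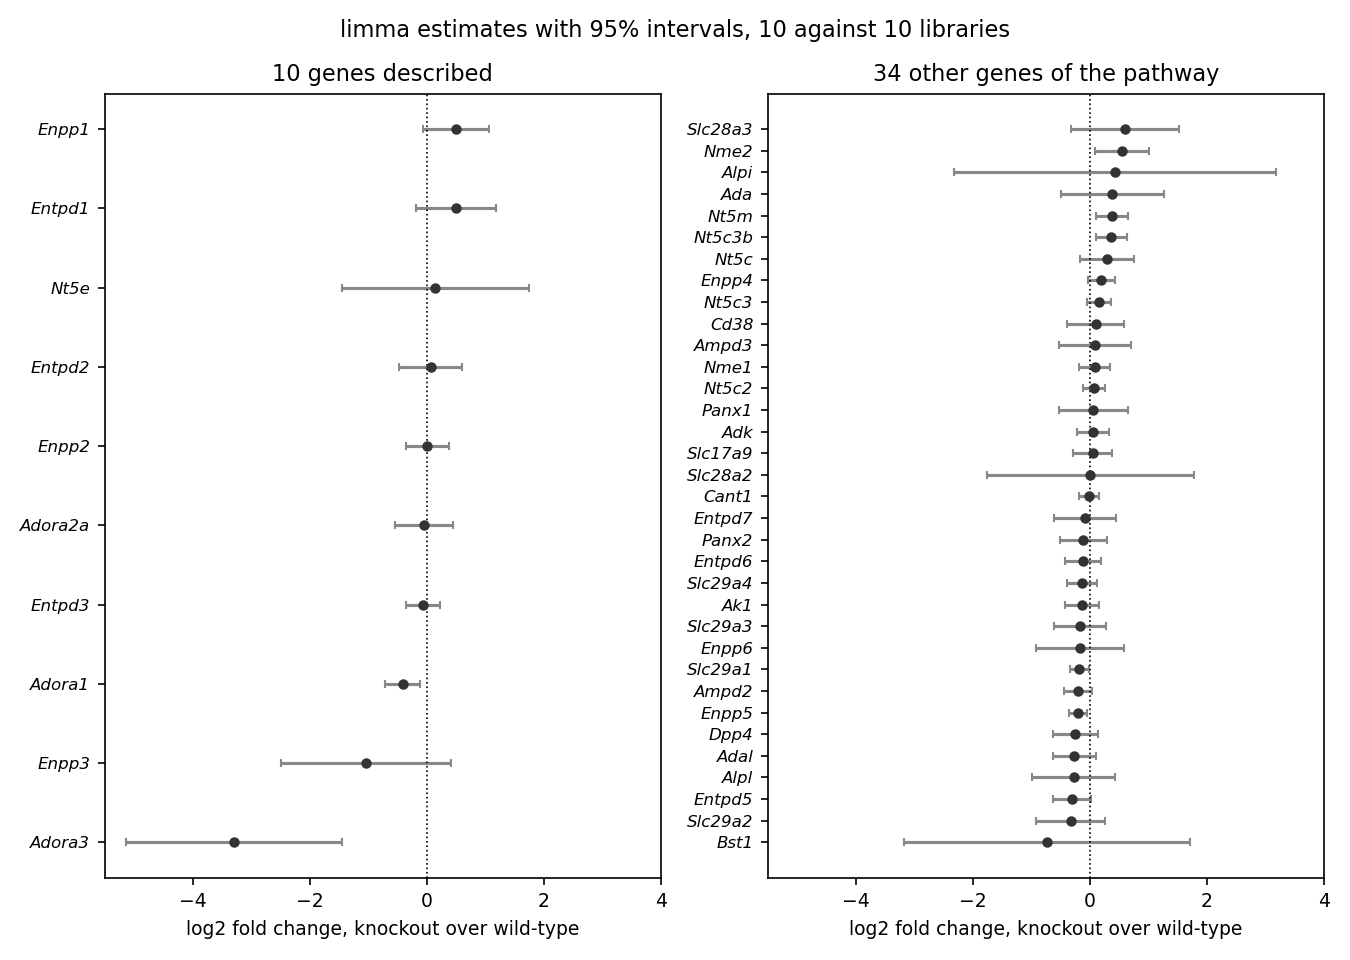
limma log2 fold changes of knockout over wild-type (horizontal axis) with 95% intervals, for the 10 genes on the left and the 34 other tested genes of the pathway on the right. The intervals of Adora3 (−5.13 to −1.45) and Adora1 (−0.71 to −0.11) leave out 0 before adjustment, and none of the 44 passed over all genes.

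For each gene, the genes with the most similar levels were taken over the 20 libraries after subtracting each genotype's mean. Entpd1 was most like Gm6169 (r = 0.92), Bche, which encodes butyrylcholinesterase (0.91), and Vill, a villin-like gene (0.90). Entpd2 was most like Metrn (0.90), Acaa2 (0.89) and the apolipoprotein gene Apoe (0.86). Entpd3 was most like the oxytocin receptor gene Oxtr (0.89), Gng12 (0.85) and Maged1 (0.84). Nt5e was most like S100a6, Cyp1b1 and the transglutaminase gene Tgm2, at 0.89 each.

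For the others the likeness was mostly weaker. Enpp1 was similar to Lbh (r = 0.77) and Gprc5c (0.74), and Enpp2 was closest to Parg (0.87), Mum1l1 (0.86) and the potassium channel gene Kcnc2 (0.85). Enpp3 was closest to Tlcd2 (0.85), Ptpa (0.82) and BC004004 (0.82). Adora1 was closest to Tmem184a (0.80), Myo18a (0.74) and Psd4 (0.74), and Adora2a to Bend5 (0.81), Cd38 (0.79) and 5430403G16Rik (0.75). Adora3 was closest to Tmigd3 (0.86), with which it shares exons, and then to Arl1 (0.74) and Ran (0.73), whose r within wild-type was 0.02 and 0.03. These are descriptions, picked as the highest among 14437 genes.

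Further genes of the same pathway were read from the same fit. The table held 41, most of which break down, convert or move nucleotides and nucleosides. Of these, 34 were tested and none passed the adjusted p in either direction, with 17 positive and 17 negative fold changes. At an unadjusted p under 0.05 there were 5 of 34, or 14.7%, beside 8.94% of all genes tested. In edgeR and in DESeq2 the number past the adjusted p was also 0, with 6 and 5 at an unadjusted p under 0.05. Over all 17482 genes tested these 2 methods had 1542 and 1713 at an unadjusted p under 0.05. Their median log2 fold change was 0.0005.

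Nt5m and Nt5c3b, which encode nucleotidases inside the cell, had the smallest p of this list. Nt5m, the mitochondrial 5'-nucleotidase, was at 795 ± 156 (SD, n = 10) across knockout and 610 ± 119 (SD, n = 10) across wild-type libraries (log2 fold change 0.38, adjusted p = 0.364 by limma). Nt5c3b, a cytosolic relative, was at 2664 ± 607 (SD, n = 10) and 2052 ± 357 (SD, n = 10), with 5 knockout libraries above the highest wild-type library. Nt5c3 showed a log2 fold change of 0.15 (limma adjusted p = 0.676). Nme2, a nucleoside diphosphate kinase gene, had 2204 ± 854 (SD, n = 10) and 1475 ± 469 (SD, n = 10), or 0.55 on the log2 scale (limma adjusted p = 0.471).

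The named genes with negative values were enzymes of the same families and the main transporter. Enpp5, a phosphodiesterase related to Enpp1, had 3929 ± 318 (SD, n = 10) across knockout and 4536 ± 539 (SD, n = 10) across wild-type libraries, with 5 knockout libraries below the wild-type range (log2 fold change −0.20, adjusted p = 0.429 by limma). Entpd5, a diphosphohydrolase of the endoplasmic reticulum, showed a log2 fold change of −0.30 (limma adjusted p = 0.587). Slc29a1, the nucleoside transporter ENT1 that takes up adenosine, had 18354 ± 1813 (SD, n = 10) and 20763 ± 2454 (SD, n = 10), or −0.18 on the log2 scale (limma adjusted p = 0.543). Per kilobase of exon it was the highest gene of this list, at 4880 ± 608 (SD, n = 20), above the 2676 of Enpp2. Ampd2, an AMP deaminase, showed a log2 fold change of −0.20 (limma adjusted p = 0.643). Adora2b, the other adenosine receptor gene, was below the limit for testing, at 7.20 ± 7.90 (SD, n = 10) and 7.31 ± 5.95 (SD, n = 10).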

How the data were processed

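The deposited table holds 1 signal per gene and library, read counts normalized by DESeq per its name, in which each gene's reads were divided by a size factor. Per the submitters' processing notes, FastQC, TopHat 1.3.3, Bowtie 0.9.9, Cufflinks 1.3.0, DESeq 1.16.0 and the build mm9 were used. The sources used here do not name the read counter, its strand setting or the annotation, and per the labels' protocols the kit was TruSeq v2, a design that keeps no strand. Dividing each column by its smallest step gave whole reads for 100% of values within a tolerance of 0.05 reads.

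Genes with a mean of at least 10 were tested with limma 3.58.1 in R 4.3.3 (lmFit and eBayes with a trend) after adding a pseudocount of 1 and taking log2, with genotype as the only term and all 20 libraries. On the recovered reads, edgeR 4.0.16 (quasi-likelihood test) passed 43 genes, or 0.246%, and DESeq2 1.42.0 passed 137, or 0.784%, against 49 with limma. Correlations used two-sided permutation tests with 100000 resamples in Python 3.11.15, scipy 1.17.1, numpy 2.4.6 and pandas 2.3.3, adjusted by Benjamini-Hochberg over 100 pairs of a gene with a marker list and over 45 pairs of the 10 genes. The 95% intervals of fold changes come from limma and measure the spread between libraries, whereas the limits for 0 reads (3 reads divided by the size factor) cover counting error only. Both the fit and the permutation step were tested on simulated data.

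Names, exon lengths and overlaps came from GENCODE M21, which is on GRCm38 and not mm9, so lengths are approximate and no gene coordinates from it are printed. The 10 genes, the marker lists and the pathway list were chosen with earlier results of these data known. Beside the 10 genes, the text names P2ry14 and the hormone genes, the pathway genes past the adjusted p, the 6 with the smallest p and the 4 with the highest level per kilobase, and for each of the 10 the 3 most similar protein-coding genes, of which 1 is not reported here. Genes named outside this rule were chosen after their values were seen. Of the pathway list, Entpd4, Enpp7, Pnp and Panx3 were not analysed here, and Entpd8, Acpp, Adora2b, Slc28a1, Nt5c1a, Nt5c1b and Ampd1 were below the limit for testing.

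Alternatives were pseudocounts of 0.5 and 10, no filter or a higher one (a mean of at least 100), quantile normalization, TMM factors, edgeR, DESeq2, covariates for marker levels or Xist, and leaving out each library. Covariates for beta and for delta and PP markers, and leaving out libraries 10 and 19 or libraries 5 and 6, were chosen after seeing the data.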

Additional observations from a re-analysis of the deposited data

Results flagged for a closer look

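Among 36 groups of 10 libraries (18 genes in 2 genotypes), 3 had a single library set far apart from the rest on the linear scale. For normally distributed values chance gives about 1 group in 20, or 5%. Read counts need not be so distributed, and log2 values were not checked, so the 3 flags cannot be weighed against that rate. Entpd2 in knockout library 10 was at a normalized read count of 1616, the next knockout value being 890. Enpp3 in the same library was at 383, the next being 42.9. Nt5e in wild-type library 20 was at 125.5, the next wild-type value being 45.6.

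Knockout library 10 was also the highest of the knockout group for Enpp1, and wild-type library 20 had the highest level of the mesenchymal and smooth muscle list, which Nt5e followed across libraries. The part of these markers in the values was not tested.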

How the results depend on the processing

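The count of the 10 genes past the adjusted p was 0 in all 36 alternatives, and so was that of the 34 pathway genes tested. The signs of Entpd1, Enpp1, Adora1 and Adora3 were the same in every alternative run, whereas those of the other 6 genes changed in some. The limma intervals of these 6 all held 0, and so did those of Entpd1 and Enpp1. The cause of the sign changes was not tested. With the macrophage list as a covariate the log2 fold change was −0.15 for Entpd2, 0.022 for Entpd3 and −0.55 for Nt5e. Without knockout library 10 and wild-type library 19 these were −0.20, 0.053 and −0.48. With the beta list as a covariate they were −0.24, 0.11 and −0.82, and Adora2a was at 0.056. With the delta and PP list Entpd3 was at 0.20 and Adora2a at 0.047, and with the endothelial list Nt5e was at −0.078. In edgeR Enpp3 was at 0.12 and Nt5e at −0.22, and in DESeq2 Nt5e was at −0.24. Leaving out 1 library gave −0.086 to 0.18 for Entpd2, −0.12 to 0.019 for Entpd3, −0.041 to 0.11 for Enpp2, −0.27 to 0.59 for Nt5e and −0.16 to 0.059 for Adora2a.

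Over all genes, 49 passed with limma. The count was 29 at a mean of at least 100, which left out Enpp3, Nt5e, Adora2a and Adora3, and 137 in DESeq2. It was 85 with the acinar list, 18 with the beta list and 1 with the delta and PP list as a covariate, and 75 without knockout libraries 5 and 6. Leaving out 1 library gave 27 (knockout library 4) to 74 (knockout library 6). Of the 24 pairs of a gene and a marker list, 0 passed within knockout and 8 within wild-type, where 10 libraries were used in place of 20. Of the 45 pairs among the 10 genes, of which 6 passed over all libraries, 0 passed without the 2 farthest libraries, 1 within knockout (Enpp1 with Adora1, r = 0.85, not among the 6) and 2 within wild-type.

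No paired analysis was possible because the wild-type data columns carry the numbers 11 to 20, which match no replicate number of the labels. Nt5e, Enpp3 and Adora3 each had libraries with 0 reads, and for Adora3 the limits these allow, 1.70 to 4.62, lie below the lowest wild-type value of 40.3.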

Other observations

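Knockout library 10 stood apart in some genes that handle adenosine and nucleosides. Ada, which turns adenosine into inosine, was at a normalized read count of 1294 there and from 44.6 to 187 in the other libraries. The nucleoside transporter gene Slc28a1 was at 63.6 there, while its knockout mean was 8.10 ± 19.9 (SD, n = 10) and its wild-type mean 2.50 ± 7.00 (SD, n = 10).

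Slc28a2, another concentrative nucleoside transporter gene, was uneven in knockout, with 6 libraries above the highest wild-type value of 117, while knockout library 6 was at 2.57 and knockout library 9 at 0. Its means were 136 ± 94.8 (SD, n = 10) across knockout and 74.7 ± 34.3 (SD, n = 10) across wild-type libraries, and its adjusted p by limma was 0.998. These genes were chosen after their values were seen.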
